A study of Bos taurus with 48 samples.

Results

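The innerCC and outerCC libraries of 8 bovine cumulus-oocyte complexes (COCs), numbered 185 to 192, were compared with each other. They make up 16 of the 48 libraries of the study, which profiled the oocyte, the cumulus cells next to it (innerCCs) and the outermost cumulus cells (outerCCs) of 16 COCs by SMART-seq2, a full-length RNA-seq protocol for very small samples. Each library stands for 1 layer of 1 COC, so the innerCC and outerCC libraries with the same number form a pair. All COCs came from antral follicles in Bos taurus ovaries from a slaughterhouse, were picked for an even cytoplasm and several cumulus layers, and went through no described culture or treatment. Neither the age of the cows nor which COCs shared a cow is given in the sources used here, so p-values measure the spread between these COCs. The layers differ by position: the outerCCs came off first in trypsin with pipetting, and the innerCCs, the layers still attached, came off in a later trypsin step, so position and time in trypsin cannot be told apart.

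The COCs were chosen from measured values. The innerCC libraries of COCs 185 to 192 held 5876 to 10295 genes over 0.5 FPKM (fragments per unit of transcript length and of mapped fragments), with a median of 9521.5, whereas those of the other 8 COCs, numbered 176 to 184, held 648 to 2639. InnerCC 192, with 5876 genes, was the library just inside this gap, and the innerCC library with 2639 genes was the one just outside. The number of genes is therefore a description here and was given no test, and genes with transcripts in innerCCs are favoured by the choice. Of 24616 genes in the table, 10765 had over 0.5 FPKM in at least 4 of the 8 libraries of either layer and were tested. Of these, 9233 passed in both layers, 1407 passed through the outerCCs alone and 125 through the innerCCs alone. The filter just admitted 489 genes, with 4 libraries in a layer, and just left out 654 genes, with 3.

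Cumulus cells are specialised granulosa cells that surround the oocyte in the antral follicle. Projections from the innermost cells cross the zona pellucida and end on the oocyte through gap junctions, which pass small molecules such as nucleotides, pyruvate and cyclic nucleotides. The oocyte uses glucose poorly and relies on cumulus glycolysis, and in the mouse also on sterols made by the cumulus, while it secretes GDF9 and BMP15, ligands of the TGF-beta family that restrain luteinisation and shape the cells closest to it. Which genes separate the layer next to the oocyte from the outer layer is the question that the pairing of libraries addresses.

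Most genes had lower FPKM in the innerCCs than in the outerCCs of the same COC. The difference used throughout is the innerCC minus the outerCC value on the log2(FPKM + 1) scale, averaged over the 8 COCs, which understates differences of genes with low FPKM. Its median over all genes tested was -0.79, and 96.5% of genes were lower on average. The median difference was below 0 in every COC, from -0.08 in COC 190 to -1.89 in COC 192 (exact sign-flip permutation test over 8 COCs, two-sided p = 0.0078, the smallest that 8 pairs can give). After each library was scaled by its median ratio to the typical FPKM of the genes found in all 16 libraries, the median difference was -0.13, with 64.2% of genes lower and 35.8% higher. Such scaling sets the typical gene near 0 by design, so the move of the median is no result of its own. The direction as deposited was shared by 96.5% of genes. Each gene below is given as deposited and, after scaling, relative to the typical gene of its library. FPKM is relative to the mapped fragments of a library, so a difference shared by most genes measures neither cell number nor RNA per cell. For a single gene, bulk libraries cannot tell fewer cells that express it from less of its RNA per cell.

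**Figure D1:**
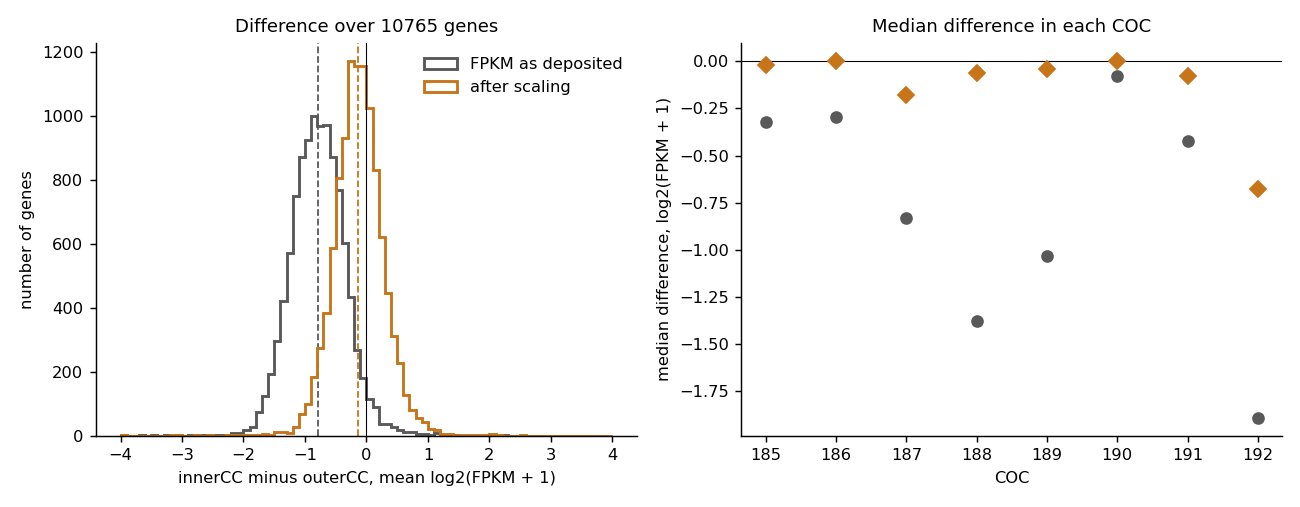
Left, histogram of the innerCC minus outerCC difference of 10765 genes on the log2(FPKM + 1) scale, from FPKM as deposited (grey) and after median-of-ratios scaling (orange), with values beyond 4 in either direction drawn at the edge and dashed lines at the medians (-0.79 and -0.13); right, the median difference in each COC. The grey points lie below 0 in 8 of 8 COCs and lowest in COC 192, and scaling moves them close to 0 except in COC 192.

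No gene passed the adjusted threshold used for the comparison (limma with the COC as a block, Benjamini-Hochberg adjusted p under 0.01), although many came close to it. The smallest adjusted p was 0.0129, shared by 626 genes. At an adjusted p under 0.05, 5262 genes (48.9%) were lower and 23 (0.214%) higher in the innerCCs, while before adjustment 6635 genes (61.6%) were lower and 34 (0.316%) higher with p under 0.05. After scaling no gene passed either adjusted threshold (smallest adjusted p = 0.234), and 1093 genes (10.2%) were lower and 494 (4.59%) higher at an unadjusted p under 0.05. The split between higher and lower genes depended on the scaling: at an unadjusted p under 0.05 it was 51 higher and 4204 lower with libraries scaled to the same sum, 598 and 811 with the same 75th percentile, and 802 and 772 after quantile normalization.

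The count of 0 lower genes rested on COC 192. Without that COC, 912 genes were lower at an adjusted p under 0.01 and 0 were higher, and 908 of the 912 had an unadjusted p under 0.05 with all 8 COCs. Without COC 187 or COC 190 there was 1 lower gene each, and leaving out any of the other COCs gave 0. With variances fitted to a trend on level and robust to outlying genes, limma called 717 lower and 1 higher, and 609 of the 717 were among the 912. Among the 4645 genes over 0.5 FPKM in all 16 libraries, 1716 were lower and 7 higher. After scaling, none of these settings called a gene.

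Agreement over COCs is counted here beside the tests. In FPKM as deposited, 2373 genes (22.0%) were lower in the innerCCs of 8 of 8 COCs and 3 genes (0.0279%) were higher in 8 of 8. After scaling, 323 genes (3.0%) were lower and 172 (1.6%) higher in 8 of 8. The values of the layers did not overlap for 166 genes (1.54%), all with every innerCC library below every outerCC library. Presence is a description only: 57 of 10765 genes were over 0.5 FPKM in all 8 outerCC libraries and in at most 2 innerCC libraries. No gene showed the reverse. All 57 passed the filter through the outerCCs alone, as 1407 genes did against 125 through the innerCCs alone. This direction is therefore favoured by the filter.

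Library values also differed between the layers, the scaling factor being another measure of the same shift. InnerCC 192 stood apart, with 41.7% of the genes tested listed at 0 and 70.1% of its summed FPKM in its 10 most abundant genes, and outerCC 186 had 14.9% of the genes tested listed at 0. The 10 most abundant genes of a library took 38.4% of summed FPKM on average in innerCCs and 18.2% in outerCCs, a larger share in the innerCCs of 7 of 8 COCs (exact sign-flip permutation test, two-sided p = 0.0156). The log2 scaling factor was lower by 0.97 ± 0.72 (SD, n = 8) in innerCCs, in 8 of 8 COCs, while log2 summed FPKM differed by -0.27 ± 0.35 (SD, n = 8, exact sign-flip permutation p = 0.0859). The depth of the libraries is not in the FPKM table, and the low FPKM values gave no unique depth. Whether depth, RNA input or amplification took part in the difference between the layers was not tested.

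**Figure D2:**
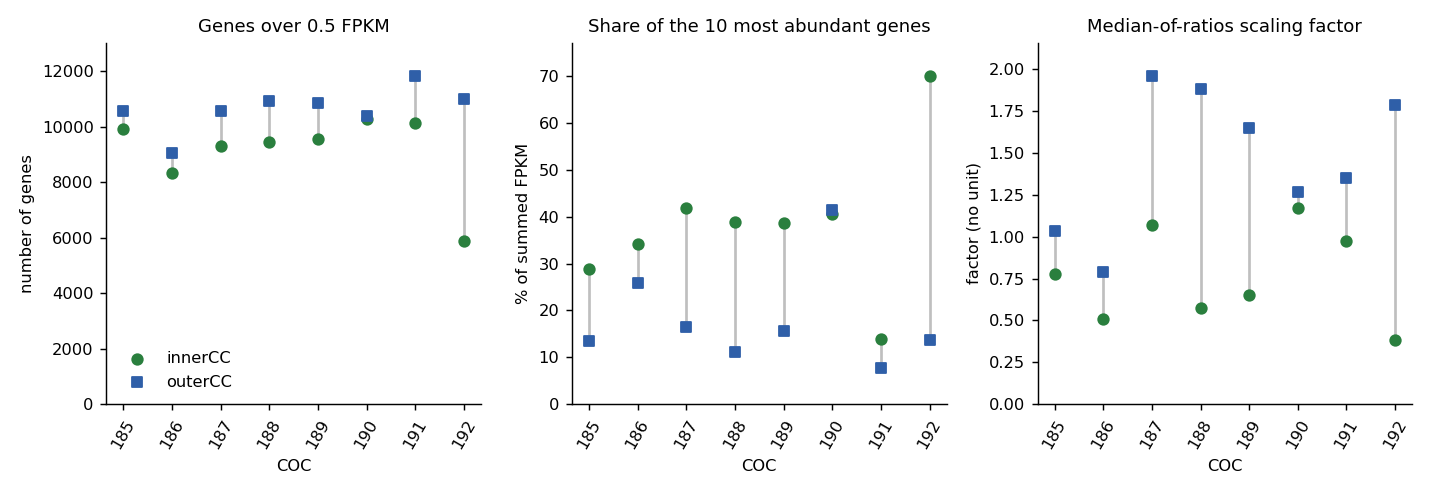
Values of the innerCC (green circles) and outerCC (blue squares) library of each COC, joined by a line: the number of genes over 0.5 FPKM, the percent of summed FPKM held by the 10 most abundant genes of that library, and the median-of-ratios scaling factor, which has no unit. The innerCC library is lower in number of genes and scaling factor in 8 of 8 COCs and higher in the share in 7 of 8, and COC 192 has the widest gap in each panel.

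Few genes were higher in innerCCs as deposited, and the most abundant genes were among them. Of the 34 genes that were higher at an unadjusted p under 0.05, 15 had a mean over 100 FPKM and the rest a lower one. Among the 20 genes with the highest mean FPKM, which spanned means of 2249 to 28191 FPKM, 15 were higher in the innerCCs, each at an unadjusted p under 0.05, against 34 such genes (0.316%) among all 10765. In innerCCs these 20 genes together took 18.6% to 86.2% of the summed FPKM (median 49.5%), and in outerCCs 9.93% to 52.1% (median 20.1%). The share was larger in the innerCCs of 7 of 8 COCs, by 24.4 percentage points on average (exact sign-flip permutation p = 0.0156). None of the 20 has a symbol in the sources used here, so their identity is not given, and whether mitochondrially encoded transcripts are among them is not known. The identifiers of the 15 that were higher all lie between ENSBTAG00000043546 and ENSBTAG00000043584, and those of the other 5 lie outside. What this run of identifiers encodes is not given in the sources used here, so the gap in this share is not assigned to a kind of transcript. The most abundant of them had 7717 to 90151 FPKM in innerCCs (median 29821) and 4773 to 40454 in outerCCs (median 17062). Its layers overlapped widely, the innerCC value was the higher one in 7 of 8 COCs, and the difference was 0.95 ± 0.31 (SE, limma adjusted p = 0.0252). In the oocytes of the same COCs it was far lower, at 620 to 2149 FPKM. The other 5 of the 20 differed by -0.93 to -0.08. After scaling all 20 were above 0, 16 of them with an unadjusted p under 0.05 (background 4.59%).

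**Figure D3:**
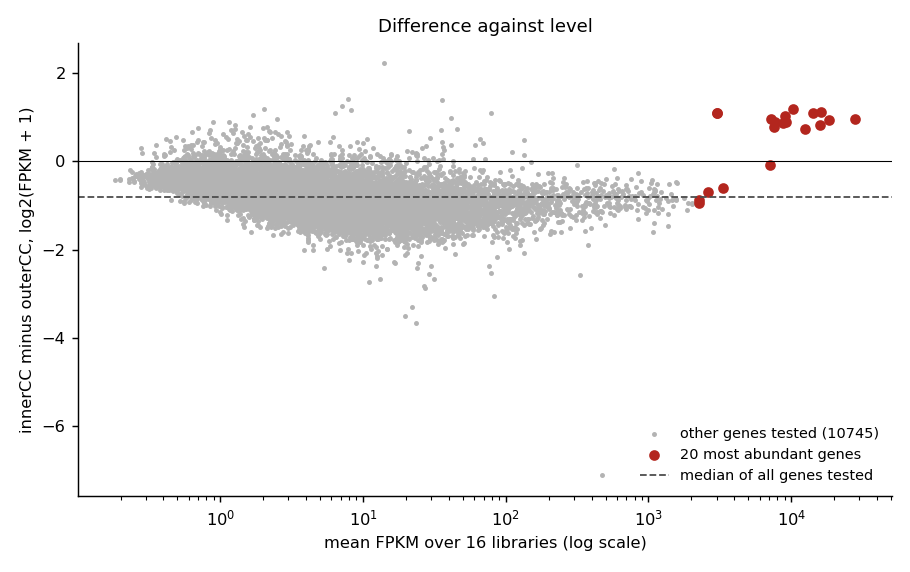
The innerCC minus outerCC difference of each gene tested (log2(FPKM + 1), as deposited) against its mean FPKM over the 16 libraries on a log scale, with the 20 most abundant genes in red and the median of all genes as a dashed line. Of the red points, 15 lie above 0 while the grey cloud lies mostly below it, around -0.79.

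In 4 groups of genes of rising mean FPKM, each of 2691 or 2692 genes, the median difference was -0.47, -0.78, -0.96 and -0.99 as deposited, and -0.14, -0.16, -0.17 and -0.06 after scaling. Values also varied more among innerCCs than among outerCCs: the median SD over the 8 COCs was 0.728 against 0.623 on the log2 scale. Without COC 192 the order turned, at 0.598 against 0.611.

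Gene symbols were at hand for 2628 of the genes tested (24.4%), from lists in the supplement of the study. Some of those lists were chosen on these libraries: 1191 of the 2628 come from a list of genes detected in outerCCs and not in innerCCs, 265 from a list of cumulus genes and 132 from a list of oocyte genes, and the other 1040 from a list of ligands and receptors. The direction of a gene from the outerCC list is therefore not independent evidence. Genes with a symbol had a median difference of -0.77 and those without of -0.80, and after scaling the medians were -0.19 and -0.11.

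Of the genes with a symbol, the 5 with the largest negative difference all stand in the outerCC list. None of them passed the adjusted threshold with all 8 COCs. The first was U5, a short RNA of the spliceosome for which few reads already give a high FPKM and which has several near-identical copies, so its level is uncertain. It was listed at 0 in 7 innerCC libraries and had 1286 FPKM in innerCC 187, against 0 to 1734 FPKM (median 767) in outerCCs. Only outerCC 190 was listed at 0 among the outerCCs. The difference was -7.12, but U5 passed the filter through the outerCCs alone, so a difference of this direction is favoured by the filter and its test is not used.

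MT1A, a metallothionein that binds zinc and copper, had 0 to 27.4 FPKM in innerCCs (median 7.13) and 2.24 to 1007 in outerCCs (median 22.7). OuterCC 192 held the highest value by far, and COC 191 went the other way. The difference was -2.53 ± 0.60 (SE, adjusted p = 0.0129) and -2.03 without COC 192. A near-identical copy, MT1E, had medians of 98.9 and 238 FPKM with a difference of -1.34 ± 0.52 (SE, limma adjusted p = 0.0448). Without COC 192 its difference was -0.77 (limma adjusted p = 0.0663). Another tested gene also carries the symbol MT1E and is not described here, and reads may have been split between metallothionein genes.

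RTL8A, a gene derived from a retrotransposon, had 0 to 12.2 FPKM in innerCCs (median 2.89) and 8.36 to 47.1 in outerCCs (median 14.5). It was lower in the innerCCs of 8 of 8 COCs, both as deposited (-2.38 ± 0.44, SE, adjusted p = 0.0129) and after scaling (-1.73 ± 0.51, SE, adjusted p = 0.249). A second gene of the table carries the same symbol. ZFP36L2, an RNA-binding protein that destabilises AU-rich mRNAs, had 0 to 2.69 FPKM in innerCCs (median 0.971) and 1.59 to 78.1 in outerCCs (median 6.27). The outerCC value was higher in 8 of 8 COCs, most of all in COC 192, for a difference of -2.08 ± 0.51 (SE, adjusted p = 0.0132), or -1.47 without COC 192. DMAC1, an assembly factor of mitochondrial complex I, was listed at 0 in 3 innerCC libraries and had 22.4 to 55.8 FPKM in all outerCCs, with a difference of -2.40 ± 0.65 (SE, adjusted p = 0.0161). It was higher in the innerCCs of COC 190.

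No gene with a symbol was higher in innerCCs at an unadjusted p under 0.05 in FPKM as deposited. After scaling, the 5 with the largest positive difference at that threshold were PDCD7 (1.12), GOLGA4 (1.05), AFDN (0.97), ELF2 (0.93) and AHI1 (0.85), with adjusted p from 0.234 to 0.334. GOLGA4, a golgin that tethers vesicles at the trans-Golgi, had 4.78 to 34.6 FPKM in innerCCs (median 11.6) and 6.40 to 18.1 in outerCCs (median 10.3). The layers overlapped, and the scaled value was higher in the innerCCs of 8 of 8 COCs. As deposited the difference was 0.17 ± 0.30 (SE). AFDN, the adherens junction protein afadin, was likewise higher after scaling in 8 of 8 COCs, with medians of 1.11 and 0.588 FPKM. Its difference as deposited was 0.51 ± 0.27 (SE, adjusted p = 0.116).

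Among genes without a symbol, ENSBTAG00000032074 and ENSBTAG00000047084 had the largest negative differences, -3.67 and -3.49, and each was listed at 0 in 7 of 8 innerCC libraries. Both passed the filter through the outerCCs alone, which favours a negative difference. ENSBTAG00000034844 and ENSBTAG00000024604 had the largest positive ones, 2.23 and 1.41, and the first of these passed through the innerCCs alone. For the latter, innerCCs had 2.82 to 20.5 FPKM (median 10.5) and outerCCs 0 to 30.0 (median 2.15), and only COC 186 was reversed (limma adjusted p = 0.0188).

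The identity of the layers was checked against marker lists. Of the granulosa and cumulus markers 6 had a symbol match, 2 of them from the outerCC list, and all 6 were expressed in both layers: their summed level had a median of 1446 FPKM in innerCCs, within 249 to 2135, and a median of 2385 FPKM in outerCCs, within 871 to 5114. FSHR and AMH were not among the matched symbols. None of the 6 was higher and 4 were lower at an unadjusted p under 0.05 (61.6% of all genes were). Their median difference was -0.88 as deposited and -0.03 after scaling.

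INHA, the alpha subunit of inhibin, had 183 to 1128 FPKM in innerCCs (median 919) and 803 to 3430.4 in outerCCs (median 1746). INHA was lower in the innerCCs of 8 of 8 COCs although the layers overlapped, with a difference of -1.20 ± 0.28 (SE, limma adjusted p = 0.0129). After scaling the difference was -0.22 ± 0.16 (SE, adjusted p = 0.531), which is close to that of the typical gene. INHBA, the beta A subunit that pairs with INHA in inhibin and with itself in activin, was at 44.4 to 745 FPKM in innerCCs (median 393) and 22.0 to 1331 in outerCCs (median 473). Its difference was -0.40 ± 0.30 (SE, adjusted p = 0.249) as deposited, and after scaling it was 0.56 ± 0.33 (SE, adjusted p = 0.441), higher in the innerCCs of 8 of 8 COCs. The transcription factor GATA4 and the hedgehog ligand IHH were lower in 8 of 8 COCs as deposited (-1.05 and -0.71) and at -0.22 and 0.24 after scaling.

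Markers of other cell types were low in most libraries, with higher values in single libraries, most of all for the oocyte markers. Of the oocyte markers 12 had a match and 3 passed the filter. Their summed level was 1.53 to 251 FPKM in innerCCs (median 5.0) and 0.595 to 590.3 in outerCCs (median 1.6), and the highest library was outerCC 191, without which the outerCC sums reached 104 FPKM. GDF9 had 186 FPKM and FIGLA 31.8 FPKM in outerCC 191, against medians of 537 and 209 FPKM in the oocytes, and the next highest outerCC values were 5.02 and 0.526 FPKM. KPNA7 and BMP15 had 131 and 105 FPKM in the same library, against oocyte medians of 640 and 435 FPKM. H1FOO, the oocyte linker histone, was highest in innerCC 190, at 113 FPKM. Whether oocyte transcripts took part in other values of these libraries was not tested. The 3 matched theca and stromal markers summed to 4.38 to 19.6 FPKM in innerCCs and 4.80 to 51.9 in outerCCs. The leukocyte markers CSF1R, CD3E and FCER1G had a median of 0 to 0.22 FPKM in either layer. CSF1R nevertheless reached 19.4 FPKM in an innerCC library and 6.55 in an outerCC library. The endothelial markers VWF and TEK had medians of 0.04 to 0.14 FPKM, with TEK at up to 2.27 in innerCCs and 1.80 in outerCCs. No erythroid marker had a match.

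Granulosa cells make progesterone from cholesterol and estradiol from theca androgens. Of 8 tested genes of steroid synthesis, 6 were lower in innerCCs at an unadjusted p under 0.05 (background 61.6%) and none higher, and the median difference was -1.02 as deposited and -0.33 after scaling. CYP11A1, the side-chain cleavage enzyme that starts steroid synthesis, had 24.5 to 225 FPKM in innerCCs (median 79.8) and 33.5 to 647 in outerCCs (median 151). The innerCC value was lower in 8 of 8 COCs (-0.87 ± 0.27, SE, adjusted p = 0.0239), and after scaling in 4 of 8 (0.09 ± 0.25, SE). CYP19A1, the aromatase, had overlapping layers, with medians of 5.64 and 5.63 FPKM and a difference of -0.53 ± 0.30 (SE, adjusted p = 0.133). The lowest aromatase value of all was 0.187 FPKM in innerCC 192.

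SREBF2, the transcription factor that turns on cholesterol synthesis and uptake when sterols are low, remained below the typical gene after scaling. InnerCCs had 0 to 2.29 FPKM (median 0.948) and outerCCs 1.47 to 8.35 (median 3.94). It was lower in the innerCCs of 8 of 8 COCs, narrowly so in COC 185, and the difference was -1.39 ± 0.30 (SE, adjusted p = 0.0129) as deposited and -0.85 ± 0.22 (SE, adjusted p = 0.234) after scaling. SREBF2 comes from the outerCC list. The other tested genes of cholesterol synthesis were EBP (-0.78) and HSD17B7 (-0.46), which after scaling were at 0.14 and 0.33.

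All 4 tested genes of lipoprotein and lipid transport were lower at an unadjusted p under 0.05 (background 61.6%), with a median of -1.35 as deposited and -0.52 after scaling. APOE, the apolipoprotein that carries cholesterol between cells, had 7.41 to 87.4 FPKM in innerCCs (median 53.7) and 57.5 to 198 in outerCCs (median 135). The innerCC value was lower in 8 of 8 COCs, the layers overlapped through COCs 185, 190 and 191, and the difference was -1.62 ± 0.38 (SE, adjusted p = 0.0129). After scaling it was lower in 7 of 8 COCs (-0.67 ± 0.26, SE, adjusted p = 0.302). APOA1, of high-density lipoprotein, was also lower in 8 of 8 COCs (-1.53 ± 0.41, SE, adjusted p = 0.0158), though in COC 190 the layers had 77.2 and 78.3 FPKM. Its largest gap was in COC 192, and without that COC the difference was -1.17. LPL, the lipase that frees fatty acids from lipoproteins, differed by -0.90 ± 0.32 (SE, adjusted p = 0.0353).

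**Figure D4:**
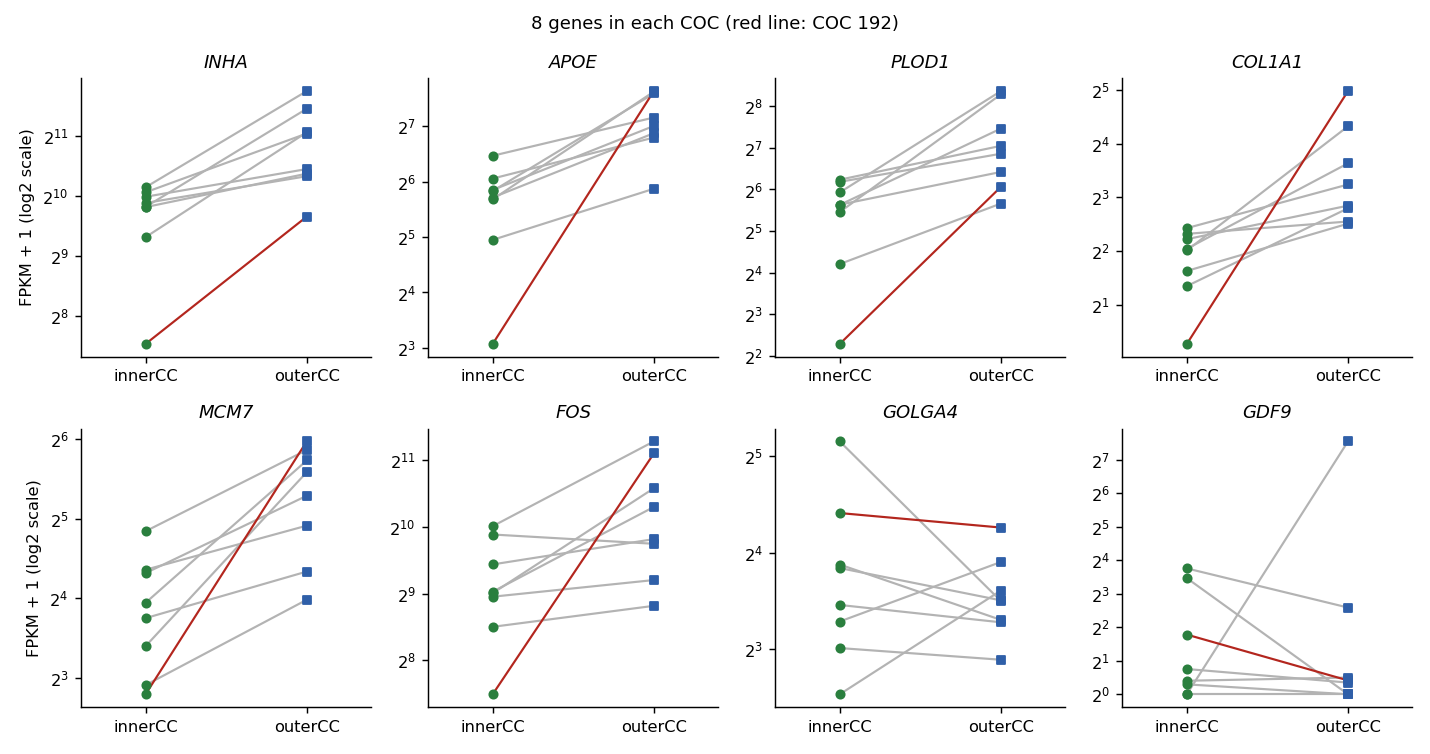
FPKM + 1 on a log2 scale of 8 genes in the innerCC (green circle) and outerCC (blue square) library of each of 8 COCs, joined by a line that is red for COC 192. INHA, APOE, PLOD1, COL1A1 and MCM7 are lower in innerCCs in 8 of 8 COCs, FOS in 7 of 8 and GOLGA4 in 2 of 8, and GDF9 is high only in outerCC 191.

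Cumulus cells break down glucose to the pyruvate on which the oocyte lives. All 6 tested glycolysis genes were lower in innerCCs at an unadjusted p under 0.05 (background 61.6%), 5 of them in 8 of 8 COCs (background 22.0%), with a median of -1.21. After scaling, 5 of 6 stayed below 0, 1 was lower at an unadjusted p under 0.05, and the median was -0.33. PFKP, the platelet form of phosphofructokinase, which catalyses the committed step, had 7.02 to 30.6 FPKM in innerCCs (median 18.0) and 18.5 to 115 in outerCCs (median 40.2). The layers overlapped, but each pair had the lower value in the innerCCs (-1.36 ± 0.30, SE, adjusted p = 0.0129). The liver form PFKL differed by -1.22 ± 0.29 (SE, adjusted p = 0.0129), hexokinase HK1 by -1.08 ± 0.31 (SE, adjusted p = 0.0185) and aldolase ALDOA by -0.94 ± 0.27 (SE, adjusted p = 0.0178). After scaling, these 4 differed by -0.44, -0.27, -0.16 and 0.03 in the same order.

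Nuclear genes of respiration had a median difference close to that of all genes tested. Of 15 tested nuclear-encoded genes of oxidative phosphorylation, 12 were lower at an unadjusted p under 0.05 (background 61.6%), with a median of -0.88 as deposited and 0.08 after scaling. ATP5A1, the alpha subunit of mitochondrial ATP synthase, had 292 to 658 FPKM in innerCCs (median 334) and 346 to 856 in outerCCs (median 553). It was lower in 8 of 8 COCs as deposited (-0.52 ± 0.25, SE, adjusted p = 0.0931) and higher in 8 of 8 after scaling (0.45 ± 0.18, SE, adjusted p = 0.3). The 3 tested genes of ribosomal proteins were at -0.85 to -0.52, and at 0.12 to 0.46 after scaling, where RPLP1, of the ribosomal stalk, was higher in 8 of 8 COCs. None of the mitochondrially encoded genes had a matched symbol.

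Cumulus cells respond to gonadotrophins, EGF-like ligands, insulin-like growth factors and steroids through receptors. Of 7 tested receptor genes, 4 from the outerCC list, 4 were lower at an unadjusted p under 0.05, a share below the background of 61.6%, with a median of -0.94 and of -0.21 after scaling. Of the 7, 2 had passed the filter through the outerCCs alone. EGFR, the receptor for the EGF-like ligands that carry the ovulatory signal into the cumulus, had 5.37 to 16.4 FPKM in innerCCs (median 7.83) and 10.8 to 25.9 in outerCCs (median 18.9). The layers overlapped and 7 of 8 COCs were lower in innerCCs (-0.94 ± 0.30, SE, adjusted p = 0.0241), and after scaling the difference was -0.04 ± 0.18 (SE). IGF1R and INSR, the receptors for insulin-like growth factor and insulin, were at -1.05 each (adjusted p = 0.0329 and 0.0487) and at -0.27 and -0.38 after scaling. Without COC 192 they were at -0.68 and -0.58 as deposited. The estrogen receptor ESR1 passed the filter through the outerCCs alone, with a median of 0.0724 FPKM in innerCCs against 0.647 in outerCCs, and differed by -0.45 ± 0.25 (SE). CADM4, a cell adhesion molecule, had medians of 0.537 and 2.70 FPKM and a difference of -1.30 ± 0.32 (SE, adjusted p = 0.0134). FGF11, an intracellular FGF homologous factor, differed by -0.49 ± 0.28 (SE). The study, over all 16 COCs, names INSR, ESR1, CADM4 and FGF11 as expressed in outerCCs only, and each stands in the outerCC list. Their direction is therefore not independent evidence. CADM4 reached 2.27 FPKM in these innerCCs and 7.66 in these outerCCs, and FGF11 reached 9.75 and 11.3 FPKM. Of the genes that the study names for innerCCs by identifier alone, 3 were tested, none with a symbol in the sources used here. The olfactory receptor genes that it also names for innerCCs were not examined. The values below are those of the 3 tested genes. These 3 had medians of 0.473 to 1.25 FPKM in innerCCs and 0.380 to 1.12 in outerCCs, and their layers overlapped. Their differences were 0.42, 0.40 and 0.01 (limma adjusted p = 0.25, 0.297 and 0.975). The gene at 0.40 passed the filter through the innerCCs alone.

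Members of the TGF-beta pathway receive the ligands of the oocyte. Of 11 tested receptors, mediators and targets, 4 were lower at an unadjusted p under 0.05 (background 61.6%), with a median of -0.48, and 1 of the 11 had passed the filter through the outerCCs alone. After scaling the median was 0.15, with 1 higher and none lower at that threshold. That gene was SMAD5, which carries signals of bone morphogenetic proteins: innerCCs had 3.47 to 10.3 FPKM (median 5.67) and outerCCs 3.76 to 10.2 (median 8.08). As deposited the widest gaps were in COCs 188 and 192 (-0.30 ± 0.26, SE, adjusted p = 0.318), and after scaling the innerCC value was higher in 8 of 8 (0.54 ± 0.17, SE, adjusted p = 0.265). SMAD2, which carries signals of GDF9 and activin, was at -0.81 ± 0.28 (SE, adjusted p = 0.0328) and 0.15 after scaling. The type I receptor BMPR1B was at -0.94 ± 0.30 (SE, adjusted p = 0.0242) and -0.35 after scaling.

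Cumulus expansion, the loosening of the layers before ovulation, depends on EGF-like ligands and a hyaluronan matrix. Of 15 genes in the list 5 had a match and 3 passed the filter, none with an unadjusted p under 0.05: BTC (-0.49), GREM1 (-0.70) and ADAMTS1 (0.02). BTC, an EGF-like ligand, had 0 to 7.08 FPKM in innerCCs (median 3.77) and 3.22 to 6.45 in outerCCs (median 4.59). GREM1, an antagonist of bone morphogenetic proteins, passed the filter through the outerCCs alone and was listed at 0 in 6 of 8 innerCC libraries.

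The 3 tested genes of cell contacts included CTNNB1, the beta-catenin of adherens junctions, with 65.3 to 322 FPKM in innerCCs (median 149) and 78.8 to 454 in outerCCs (median 237). It was lower in 5 of 8 COCs (-0.59 ± 0.30, SE, adjusted p = 0.0968), and higher in 8 of 8 after scaling (0.37 ± 0.15, SE, adjusted p = 0.301). CTNNA1, alpha-catenin, and ITGA6, a laminin receptor subunit, were lower in 8 of 8 COCs as deposited (-0.94 and -1.08) and at 0.00 and -0.21 after scaling.

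Extracellular matrix was the list furthest below the typical gene after scaling, with a median of -0.58 against -0.13 over all genes tested. Of its 10 tested members 6 come from the outerCC list. As deposited, 9 of the 10 were lower at an unadjusted p under 0.05 (background 61.6%, median -1.19), 1 of the 10 having passed the filter through the outerCCs alone, and after scaling 4 were lower at that threshold (background 10.2%) and none higher. PLOD1, the lysyl hydroxylase that prepares collagen for cross-linking, does not come from that outerCC list. It had 3.89 to 74.3 FPKM in innerCCs (median 48.6) and 49.6 to 328 in outerCCs (median 123). The layers overlapped slightly, and PLOD1 was lower in the innerCCs of 8 of 8 COCs both as deposited (-1.82 ± 0.35, SE, adjusted p = 0.0129) and after scaling (-0.89 ± 0.23, SE, adjusted p = 0.234).

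COL1A1, the alpha 1 chain of type I collagen, comes from the outerCC list, so its direction is not independent evidence. It was 1 of the 166 genes whose layers did not overlap. It had 0.206 to 4.37 FPKM in innerCCs (median 3.07) and 4.69 to 30.5 in outerCCs (median 7.30), with a difference of -1.58 ± 0.41 (SE, adjusted p = 0.0151) and -0.86 ± 0.35 after scaling (SE, adjusted p = 0.303). TIMP1, an inhibitor of matrix metalloproteinases, had 0.806 to 7.06 FPKM in innerCCs (median 3.21) and 3.79 to 233 in outerCCs (median 6.92), where outerCC 192 was far above the others. Its difference was -1.54 with all 8 COCs and -1.06 without COC 192. LAMA1, a laminin chain of basement membranes that also comes from the outerCC list, differed by -1.36 ± 0.41 (SE, adjusted p = 0.0207).

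Immediate-early genes respond within minutes to handling or growth factors. The 4 most abundant of those tested, FOS, JUN, CYR61 and MYC, had medians of 39.9 FPKM or more in both layers. Of 10 tested immediate-early genes, 8 were lower at an unadjusted p under 0.05 (background 61.6%), with a median of -1.19 as deposited and -0.29 after scaling, and 1 of the 10 had passed the filter through the outerCCs alone. FOS, of the AP-1 transcription factor, had 179 to 1031 FPKM in innerCCs (median 518) and 450.3 to 2488 in outerCCs (median 1080.2). COC 191 had the higher value in the innerCCs, and the difference was -1.07 ± 0.37 (SE, adjusted p = 0.0314) and -0.09 after scaling. JUN, its partner, was at -0.56 ± 0.31 (SE, adjusted p = 0.133) as deposited and at 0.41 ± 0.22 (SE, adjusted p = 0.399) after scaling, where 7 of 8 COCs were higher in innerCCs. MYC and CYR61 differed by -1.34 and -1.37 as deposited and by -0.39 and -0.40 after scaling. Both were highest in outerCC 192 (618 and 1214 FPKM), and without COC 192 they differed by -0.72 and -0.88 as deposited.

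Chaperones and the unfolded protein response had the second highest list median after scaling, 0.27, below the oocyte markers at 0.41, and as deposited their median was -0.69. Of 10 tested genes 7 were lower at an unadjusted p under 0.05 as deposited (background 61.6%), and after scaling 3 were higher (background 4.59%) and 1 lower. HSP90B1, a chaperone of the endoplasmic reticulum, had 94.6 to 293 FPKM in innerCCs (median 133) and 101 to 395 in outerCCs (median 276). It was lower in 7 of 8 COCs as deposited (-0.64 ± 0.30, SE, adjusted p = 0.0792) and higher in 8 of 8 after scaling (0.33 ± 0.15, SE, adjusted p = 0.335). HSPA8, PDIA3 and CALR were at -0.76, -0.69 and -1.03 as deposited and at 0.21, 0.28 and -0.06 after scaling.

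Of 5 tested genes for metallothioneins and antioxidants, 4 were lower at an unadjusted p under 0.05 (background 61.6%, median -1.34, and -0.38 after scaling), and 1 of the 5 had passed the filter through the outerCCs alone. Catalase, CAT, had 12.8 to 38.7 FPKM in innerCCs (median 28.9) and 17.6 to 102 in outerCCs (median 47.8), lower in 8 of 8 COCs (-0.95 ± 0.29, SE, adjusted p = 0.0219), and differed by -0.01 after scaling. NFE2L2, the transcription factor of the antioxidant response, was at -0.53 as deposited and 0.40 after scaling. Of 7 tested genes of apoptosis, 6 were lower at that threshold (background 61.6%, median -1.22, and -0.42 after scaling), with 1 of the 7 admitted by the outerCCs alone. AIFM1, a mitochondrial flavoprotein, was lower in 8 of 8 COCs (-1.22 ± 0.33, SE, adjusted p = 0.016), as was DIABLO (-1.51 ± 0.46, SE, adjusted p = 0.0212), which was listed at 0 in innerCC 192. The caspase CASP6 differed by -1.24 ± 0.52 (SE, adjusted p = 0.0574), and by -0.69 without COC 192. Its highest value in each layer was 60.8 FPKM in innerCC 190 and 69.8 FPKM in outerCC 191, libraries with high oocyte markers. In the oocytes of these COCs its median was 289 FPKM.

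Genes of the cell cycle and DNA replication mark dividing cells. Of 9 tested genes 7 were lower at an unadjusted p under 0.05 (background 61.6%, median -1.14, and -0.38 after scaling). MCM7, a subunit of the replicative helicase, had 5.93 to 27.7 FPKM in innerCCs (median 13.4) and 14.8 to 61.6 in outerCCs (median 42.5). The layers overlapped, and the innerCC value was lower in 8 of 8 COCs as deposited (-1.42 ± 0.32, SE, adjusted p = 0.0129) and after scaling (-0.50 ± 0.17, SE, adjusted p = 0.274). Its partner MCM5 had medians of 18.2 and 36.2 FPKM and was lower in 8 of 8 COCs on both scales (-1.31 ± 0.27, SE, and -0.40 ± 0.16 after scaling). CDC20, an activator of the anaphase-promoting complex, was lower in 8 of 8 COCs as deposited (-1.25). AURKA, a mitotic kinase with a median of 1442 FPKM in these oocytes, was at -0.43 ± 0.45 (SE, limma adjusted p = 0.398). It was higher in the innerCCs of 5 of 8 COCs, and with 1 COC left out the difference ran from -0.60 to 0.10. Its highest values, 157 and 246 FPKM, were in innerCC 190 and outerCC 191, the libraries in which H1FOO and GDF9 were highest.

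All 6 tested genes of the cytoskeleton were between -1.48 and -1.01 as deposited, 5 of them with an unadjusted p under 0.05 (background 61.6%), and had a median of -0.18 after scaling. ACTB, beta-actin, had 459 to 1730.0 FPKM in innerCCs (median 1232) and 1552 to 4053 in outerCCs (median 2377), and differed by -1.10 ± 0.30 (SE, adjusted p = 0.0162) and by -0.13 ± 0.15 (SE) after scaling. KRT18, an epithelial keratin, had 142 FPKM in outerCC 192 and 0.986 to 7.05 in the other outerCCs.

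**Figure D5:**
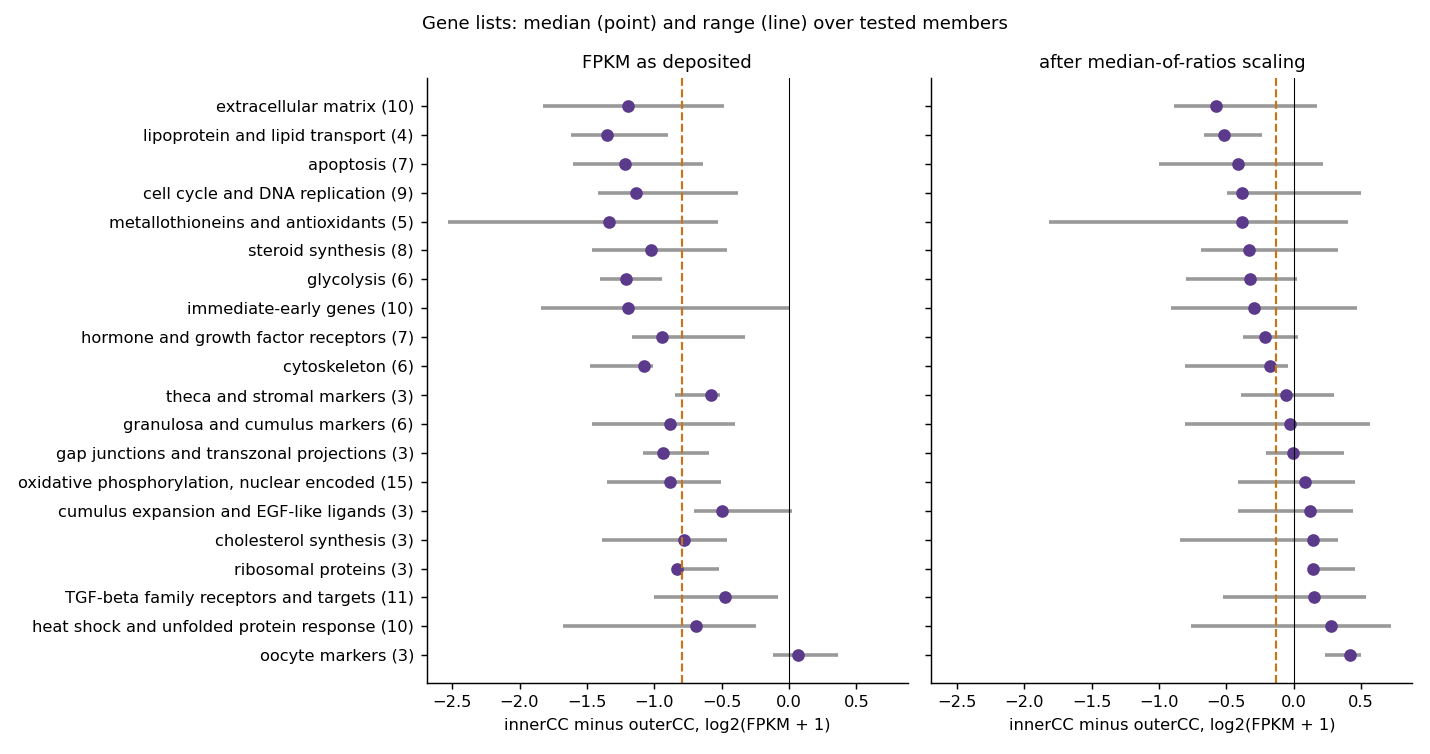
Median (point) and range (line) of the innerCC minus outerCC difference over the tested members of each gene list, with their number in brackets, as deposited (left) and after scaling (right); the dashed line is the median of all genes tested, and lists are ordered by the right panel. As deposited all lists but the oocyte markers have a median below 0; after scaling extracellular matrix has the lowest (-0.58) and the oocyte markers the highest (0.41).

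In the innerCCs of the other 8 COCs, 59.6% to 87.6% of the genes tested were listed at 0 (median 71.7%). RTL8A, SREBF2 and ESR1 were listed at 0 in 8 of 8 libraries, PLOD1 in 7 and COL1A1 in 5, while ACTB, FOS and CALR were above 0 in all. RTL8A, SREBF2, ESR1 and COL1A1 stand in the outerCC list, which was drawn up with these libraries too, so values of 0 are favoured for them. With most genes tested at 0 here, these values are no second observation of the difference between the layers. These libraries were not used in any test.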

How the data were processed

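Paired reads had been mapped by the authors with STAR (2.5.2) against the UMD3.1 assembly, reduced to uniquely placed, deduplicated reads (Picard 2.5) and turned into FPKM per Ensembl gene with Cufflinks (2.2.1). The deposited unfiltered table holds these FPKM values, and the filtered table was not used. cDNA had been amplified by 16 PCR cycles. All 48 columns were matched to samples. Counts and depth were not used here, nor was the collection batch, whose COCs are not given. The block for COC absorbs any batch of whole COCs.

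Genes with FPKM over 0.5 in at least 4 of 8 libraries of either layer were tested with limma (3.58.1, R 4.3.3) on log2(FPKM + 1), with the COC as a block and Benjamini-Hochberg adjustment over all genes tested. The fit was repeated after median-of-ratios scaling over genes above 0.5 in all 16 libraries. Library values were compared by exact sign-flip permutation in Python (3.11.15). The fit was tested on simulated data with normal errors, independent between genes, and 200 of 10765 genes changed. At an adjusted p under 0.01 it recovered 5% of differences of 1 log2 unit and 61% of those of 2, with 2 false calls. In the data, 61.6% of genes were lower at an unadjusted limma p under 0.05, and genes of a library are not independent. The simulated recovery rates therefore do not carry over to the fit of the data. A count of 0 called genes does not by itself show that differences near 1 were absent. The numbers pair the samples because same-numbered libraries come from 1 COC: deviations of such pairs correlated at 0.327 on average (-0.05 to 0.57).

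Named genes were the 5 with a symbol and the largest difference in each direction and fit at an unadjusted p under 0.05, the 4 most abundant tested members of each gene list, detected markers, and genes that the study names for either layer. Some genes that this rule takes are not reported here. The COCs, lists and genes were chosen with earlier results of these data known. No sequences are shown.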

Additional observations from a re-analysis of the deposited data

Results flagged for a closer look

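Among 188 sets of 8 values (16 libraries in 2 layers, for library measures and named genes), 35 had a lowest or highest value whose gap to the next exceeded the share of the range, 0.526, that Dixon's test allows for 8 values at 95%. For values with a normal spread, chance flags about 1 in 20 such sets, and genes of a library are not independent. Gene values entered as log2(FPKM + 1). A set with 7 values of 0 is flagged whatever its other value. Such sets were U5, ENSBTAG00000032074 and ENSBTAG00000047084 in innerCCs and ENSBTAG00000034844 in outerCCs. Of the 35 values, 20 fell in COC 192, and 13 of those were low values of innerCC 192.

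InnerCC 192 had 6658 genes above 0 and 41.7% of the genes tested at 0. It had the lowest FPKM of INHA (183), CYP19A1 (0.187), HSD17B4 (1.18), APOE (7.41), ALDOA (140), PGRMC1 (1.75), IGF1R (0.57), LAMA1 (0.304), RPS27A (400.1) and ATP5B (56.8), and DIABLO and CDC20 were listed at 0 there. OuterCC 192 was high in ZFP36L2 (78.1 FPKM), TIMP1 (233) and KRT18 (142), and low in INHBA (22.0), IHH (23.2) and CDC20 (7.13).

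OuterCC 191 was high in 2 oocyte genes, GDF9 (186 FPKM) and FIGLA (31.8), and innerCC 190 in H1FOO (113) and EBP (69.3). U5 stood apart at 1286 FPKM in innerCC 187 and at 0 in outerCC 190, and JUN at 691 FPKM in innerCC 187. In COC 186, 14.9% of the genes tested were at 0 in the outerCCs, where AFDN was high (3.08 FPKM) and HSD17B7 low (0.963), and NFE2L2 was low in the innerCCs (6.47). Of the named genes without a symbol, 4 had 1 high value each: ENSBTAG00000032074 (30.3 FPKM) in innerCC 188, ENSBTAG00000047084 (24.9) in innerCC 191, ENSBTAG00000034844 (24.4) in outerCC 188 and ENSBTAG00000024604 (30.0) in outerCC 186. The cause of these values was not tested.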

How the results depend on the processing

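The count of genes past an adjusted p of 0.01 in FPKM as deposited (0 higher, 0 lower) was not stable. It was 7 higher and 1716 lower among genes over 0.5 in all 16 libraries, 3 and 1567 among genes over 0.5 in all 8 libraries of a layer, and 1 and 717 with a trended, robust prior. Leaving out 1 COC at a time gave 0 to 912 lower and 0 higher genes. The alternatives chosen after seeing the data gave 37 higher and 1452 lower without COCs 186, 191 and 192, and 23 and 5262 at an adjusted p of 0.05. Pseudocounts of 0.1 and 5, all genes above 0, the number of genes as a covariate and the other scalings gave 0. The median difference over all genes, -0.79, was -0.62 to -0.90 with 1 COC left out, -1.14 and -0.44 with pseudocounts of 0.1 and 5, -0.38 over all genes above 0, -0.23 with the number of genes as a covariate, -0.0701 with the same 75th percentile, 0.0078 after quantile normalization and -0.13 after median-of-ratios scaling, and that last value became 0.11 with the number of genes as a covariate. After scaling, all alternatives gave 0 genes in either direction. Without the replicate block the counts also stayed at 0, with 15 higher and 5883 lower at an unadjusted p under 0.05, and no call differed.

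Of the 90 named genes, the difference changed sign for 26 under median-of-ratios scaling, 34 under the same 75th percentile, 27 under quantile normalization, 1 under the same sum and 20 with the number of genes as a covariate. The cause of these shifts was not tested. Depth is not in the FPKM table, so a gene listed at 0 may only be below what its library could detect, most of all in innerCC 192.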
